A study of Schizosaccharomyces pombe with 2 samples.

Results

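The genes described here lie near the ends of chromosomes I and II of fission yeast (Schizosaccharomyces pombe). The rule that picks them uses names and no measured value, although it was set with earlier results of these data known. It takes every array probe whose systematic gene name begins with the clone prefix SPAC212, SPAC977, SPAC186, SPAC750, SPAC869, SPAC1039, SPBPB8B6, SPBC1348 or SPBCPT2R1. This gave 90 of the 5057 gene probes, each for a different gene. In the order of the RefSeq gene table (assembly ASM294v3), 28 lie at the left end of chromosome I, 37 at its right end, 16 at the left end of chromosome II and 9 at its right end. The SPAC212, SPAC750, SPBC1348 and SPBCPT2R1 genes are the outermost at these ends in that order. The SPAC1039 genes, up to 45 genes in from the right end of chromosome I, lie farthest from a telomere.

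The study compared strain ESY173, which lacks mga2, a transcriptional activator of lipid genes, with the control strain KGY425. Both were kept in log phase in complete YES medium in an anaerobic chamber (1.5 h without O2), so no value below gives the response to losing oxygen. The sample labels call the control WT, whereas the series design text writes it as sre1D and the deletion strain as sre1D/mga2D, so that both may lack sre1, the gene of the main SREBP (a sterol-responsive transcription factor). RNA from 2 biological replicates of each strain was hybridised pairwise to 2 Agilent arrays with the dyes swapped, the mga2Δ RNA in Cy5 on array 1 and in Cy3 on array 2. Below, mga2Δ and WT are the labels' names, each ratio is the log2 ratio of mga2Δ to WT after centring on the general trend of its array, each mean is over 2 arrays, and ± is the SD between them.

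The ends of fission yeast chromosomes are packaged in heterochromatin, compact chromatin in which histone H3 carries methyl marks bound by the protein Swi6 and histone deacetylases keep transcription low. Shelterin proteins such as Taz1 and Rap1 bind the telomere repeats themselves. Inward of the repeats, whole blocks of sequence recur at several ends, so that many genes there have near-identical copies. The subtelomeres are also known for genes of nutrient uptake, stress and cell-surface proteins that are little expressed in growing cells.

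Between 96.8% and 98.6% of all probes were well above background in each strain on each array, no gene spot was saturated, and median gene signals lay between 858.5 and 2325 scanner units. The number of arrays limits the precision, since the test has 1 residual degree of freedom per gene. The mga2 probe had ratios of −7.27 on array 1 and −6.13 on array 2. Both WT signals were well above background and neither mga2Δ signal was, so mga2 was at least 85.0-fold lower in mga2Δ (limma adjusted p = 1.26e-05). The probe for sre1 stayed below that level in all 4 measurements. In bulk RNA of this kind, fewer cells with a transcript and less of it per cell cannot be told apart.

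Of the 90 subtelomeric genes, 78 were bright enough to test, of which 22 were raised and 6 lowered in mga2Δ (limma, two-sided, Benjamini-Hochberg adjusted p of 0.05 over all 4964 tested genes). That is 28.2% raised and 7.69% lowered, where over all tested genes 18.4% were raised and 10.9% lowered. Rises of at least 2-fold on both arrays were seen for 11 of the 78 (14.1%), against 3.61% of all tested genes, and falls of that size for 0, against 0.524%. The median ratio was 0.14, where that of all tested genes was 0.0041. A handful of large rises stood beside a majority of small ratios: 50 tested genes did not pass, and none of these had a mean beyond 0.39 in size. All 22 raised genes were positive, and all 6 lowered genes negative, on each array and under each processing setting in which they were tested. The calls rest on these same arrays and the settings reprocess the same spots, so this agreement is no separate support for the calls. The split of calls did move with the processing and with the settings of the test. It was 34 raised and 14 lowered with signals as processed by the scanner's own program, where 17.8% of all tested genes were raised and 16.4% lowered. With the authors' deposited ratios it was 26 and 21, against 15.1% and 22.9% of all tested genes. Spike-in centring gave 30 and 3 (all genes 23.4% and 1.83%), fewer prior degrees of freedom 18 and 3 (9.93% and 3.55%), and median centring 6 and 0 (2.94% and 0.524%).

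The ends differed in these counts, though the differences between ends were not tested, since genes are not replicates. At the right end of chromosome I 13 of 33 tested genes were raised (39.4%) and 4 lowered (12.1%). At its left end 6 of 24 were raised (25.0%) and none was lowered. At the left end of chromosome II 1 of 13 was raised and 1 lowered (7.69% each). At its right end 2 of 8 were raised (25.0%) and 1 lowered (12.5%). The shares of all tested genes were 18.4% raised and 10.9% lowered, and several of these small counts lay near them. The median ratios were 0.16 at the right and 0.20 at the left end of chromosome I, −0.14 at the left and 0.11 at the right end of chromosome II. The signs on chromosome II depended on the setting: the right-end median was −0.17 with the deposited ratios and −0.020 with all probes, and the left-end median 0.045 with spike-in centring. All 11 genes that rose at least 2-fold on both arrays, as 3.61% of all tested genes did, lay on chromosome I. The raised genes of chromosome I also lay in runs of neighbours rather than at the very tip, as the plot of ratios by gene order shows.

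**Figure D1:**
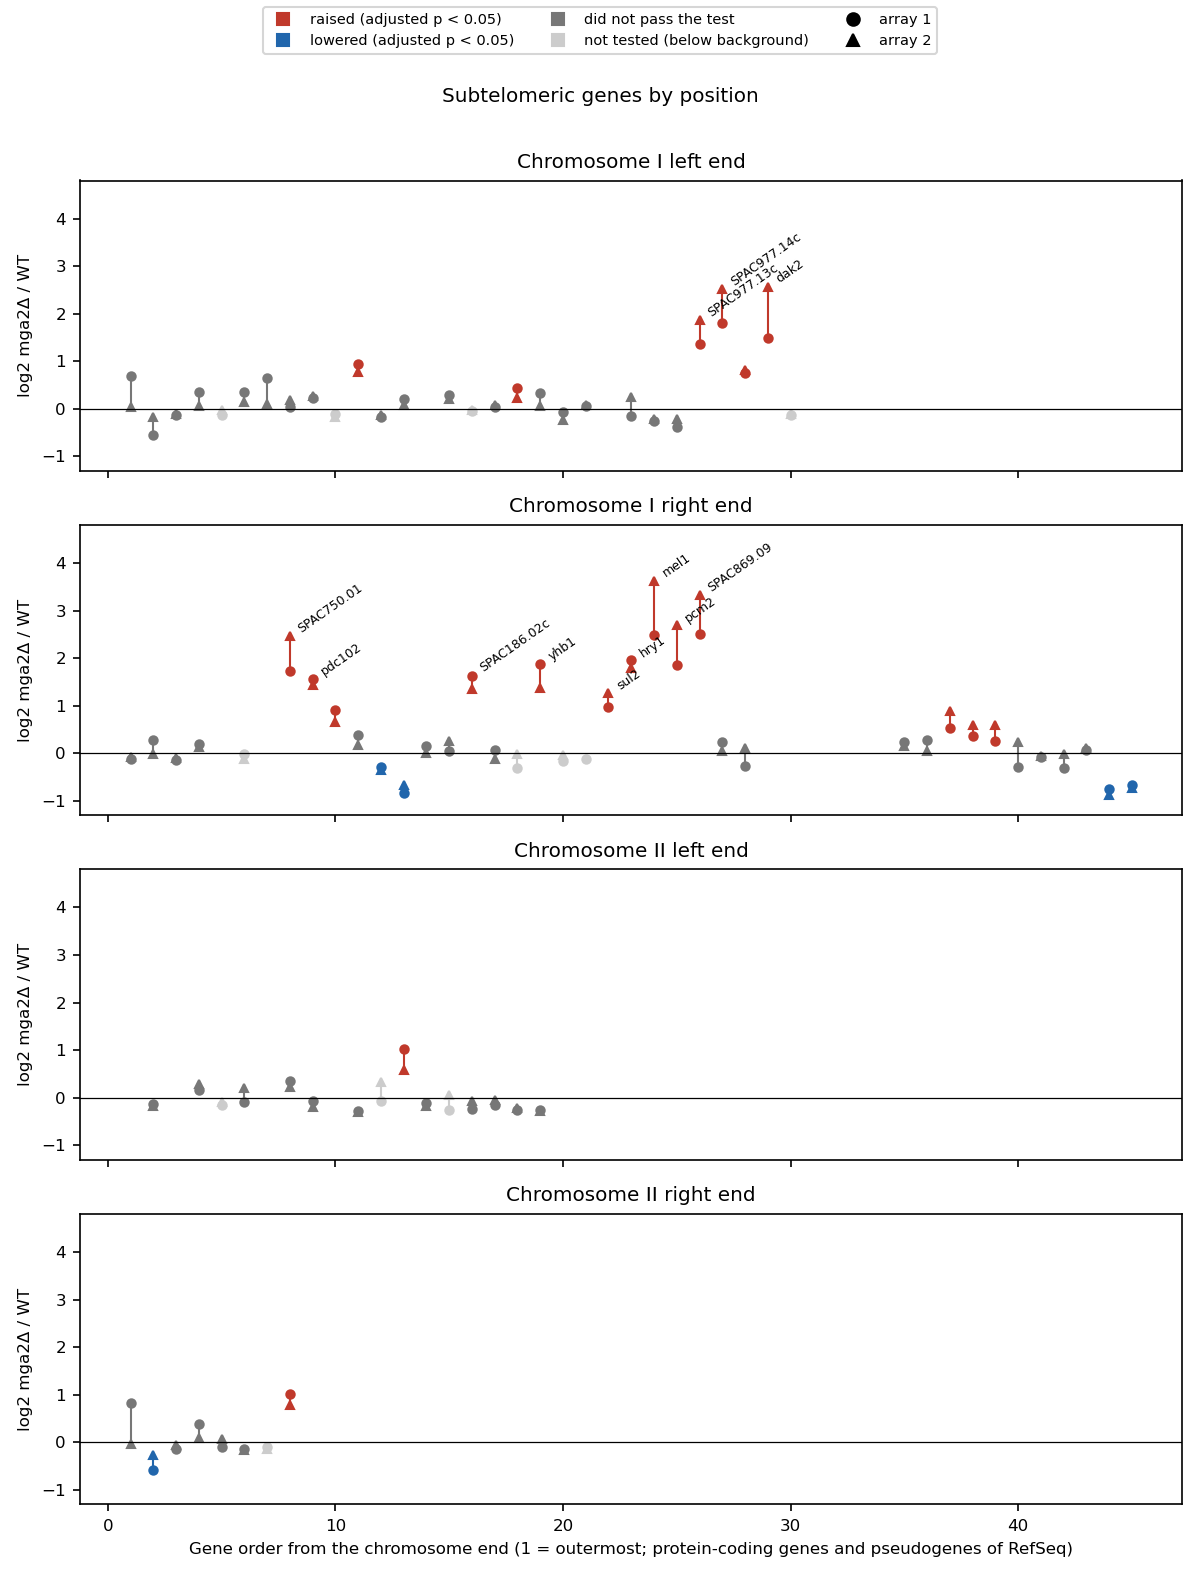
Ratios (log2 mga2Δ over WT, y axis) of the subtelomeric genes by gene order from the chromosome end (x axis, 1 is outermost), a panel per end, with a circle for array 1, a triangle for array 2 and colour for the result of the test. SPBC1348.13 and SPBCPT2R1.09c, which have no place in the gene order, are not drawn. Genes with a mean ratio of at least 1 in size carry names; the rises gather at orders 26 to 29 on the left and 8 to 26 on the right end of chromosome I.

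The largest rises lay in the SPAC869 genes at the right end of chromosome I, where 6 of 8 tested members were raised and none was lowered. The 5 from sul2 to SPAC869.09 follow each other directly in the gene order (22 to 26 from the end), with mean ratios between 1.12 and 3.05. The gene mel1 encodes alpha-galactosidase, an enzyme that splits galactose from sugars. Its WT signal was log2 6.51 on array 1 and 6.21 on array 2, and its mga2Δ signal 8.99 and 9.84. Both mga2Δ values thus lay above both WT values, and mel1 rose by 2.48 and 3.63 (mean 3.05 ± 0.81, limma adjusted p = 0.000241), a rise of 8.31-fold. The neighbour SPAC869.09 had WT signals of 6.40 and 6.02, well above background on only 1 of the arrays, and mga2Δ signals of 8.91 and 9.35. Its ratios were 2.50 and 3.33 (mean 2.92 ± 0.58, adjusted p = 8.97e-05), of which 1 was taken against a WT signal at background.

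Between them lies pcm2, a protein-L-isoaspartate methyltransferase that acts on damaged aspartyl residues. The pcm2 signal was not well above background in WT on either array (6.28 and 5.98) and reached 8.14 and 8.67 in mga2Δ. Its ratio was 2.27 ± 0.59 (adjusted p = 0.000271), and against the lowest signal well above background it was at least 4.70-fold higher. The gene hry1 had WT signals of 6.61 and 5.997, well above background on 1 array, and mga2Δ signals of 8.57 and 7.80. Its ratios were 1.95 and 1.80 (adjusted p = 3.61e-05), again with 1 of them taken against a WT signal at background, so that they do not show how well the arrays agree. The smallest rise of this run was that of sul2, named as a sulfate transporter. Its signal went from 9.51 and 9.96 in WT to 10.49 and 11.2 in mga2Δ (ratio 1.12 ± 0.20, adjusted p = 0.000498).

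The sizes of the rises from a dim WT signal depended on how background was handled. With the processed signals and with the deposited ratios, mel1 had mean ratios of 4.804 and 4.59, SPAC869.09 of 6.08 and 5.99, hry1 of 4.55 and 4.48 and pcm2 of 4.77 and 4.40. Elsewhere on chromosome I the same held for SPAC186.02c (5.28 and 4.95), pdc102 (2.68 and 2.38) and SPAC977.13c (2.81 and 2.55), all described below. The brighter sul2 had 1.12 and 1.101. All of these ratios kept their direction.

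A little nearer to the telomere lies yhb1, a nitric oxide dioxygenase, which detoxifies nitric oxide with the use of oxygen. Its WT signal was 7.91 and 8.41 and its mga2Δ signal 9.79 on both arrays, a rise of 1.88 and 1.38 (mean 1.63 ± 0.35, adjusted p = 0.000267). The genes SPAC869.04, SPAC869.03c and SPAC869.01, which flank yhb1 in the gene order, gave no signal well above background in either strain (for SPAC869.04 array 2 had no usable spot). The rise of the SPAC869 genes ended just inward of SPAC869.09. There put4, a proline permease, had a ratio of 0.14 ± 0.13, and cat1, a cationic amino acid transporter, one of −0.08 ± 0.27, and neither passed the test.

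Still nearer to the right telomere of chromosome I, SPAC750.01, pdc102 and SPAC186.08c formed another run of raised neighbours (orders 8 to 10). The pdc102 gene is named as a pyruvate decarboxylase, the enzyme that opens the path from pyruvate to ethanol. Its signals were 6.55 and 6.62 in WT and 8.12 and 8.06 in mga2Δ, and its ratios of 1.57 and 1.44 differed little between the arrays (mean 1.50 ± 0.09, adjusted p = 7.84e-05). SPAC186.08c was raised by 0.78 ± 0.18 (adjusted p = 0.00209). A few genes inward, SPAC186.02c was not well above background in WT on either array and rose to 7.74 and 7.46 in mga2Δ (ratio 1.49 ± 0.20, adjusted p = 0.000139, at least 2.76-fold). The other rises at this end were those of isp5, an amino acid permease (0.72 ± 0.25, adjusted p = 0.00481), SPAC1039.08 (0.48 ± 0.17) and SPAC1039.07c (0.43 ± 0.24). These 3 are neighbours too, at orders 37 to 39, and SPAC1039.07c overlaps the next gene inward in the annotation. With fewer prior degrees of freedom SPAC1039.08 and SPAC1039.07c did not pass (adjusted p = 0.0633 and 0.0954).

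At the left end of chromosome I the rises lay in 4 neighbours at orders 26 to 29, with a median ratio of 1.82. Among them SPAC977.14c had WT signals of 14.0 and 14.3 and mga2Δ signals of 15.8 and 16.8. It rose by 1.81 and 2.51 (mean 2.16 ± 0.50, adjusted p = 0.000207). SPAC750.01, at the other end of the chromosome, had WT signals of 13.7 and 13.9 and mga2Δ signals of 15.4 and 16.4. Its ratios of 1.72 and 2.46 (mean 2.09 ± 0.52, adjusted p = 0.000267) were within 0.083 of those of SPAC977.14c on each array. Whether these probes see separate transcripts or a shared one was not tested, since probe sequences were not used here. With median centring both had smaller ratios, 1.56 for SPAC977.14c (adjusted p = 0.0510, not passing) and 1.55 for SPAC750.01, which still passed.

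The gene dak2 encodes dihydroxyacetone kinase, an enzyme of glycerol use. Its signals were 8.26 and 8.14 in WT and 9.75 and 10.7 in mga2Δ, so that it rose far more on array 2 (2.57) than on array 1 (1.49), with a mean of 2.03 ± 0.76 (adjusted p = 0.00113). Beside it lie SPAC977.15, raised by 0.78 ± 0.05 (adjusted p = 0.00123), and the annotated pseudogene SPAC977.13c, raised by 1.61 ± 0.35 (adjusted p = 0.000268). Outward of this run no neighbour was raised. There fex1, a fluoride exporter, had a ratio of −0.23 ± 0.02 and nhe1, the sodium/proton antiporter once called sod2, one of 0.05 ± 0.29, and neither passed. Farther out only SPAC977.05c (0.34 ± 0.14, adjusted p = 0.0412) and SPAC212.02 were raised, and SPAC977.05c did not pass with fewer prior degrees of freedom (adjusted p = 0.0996).

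**Figure D2:**
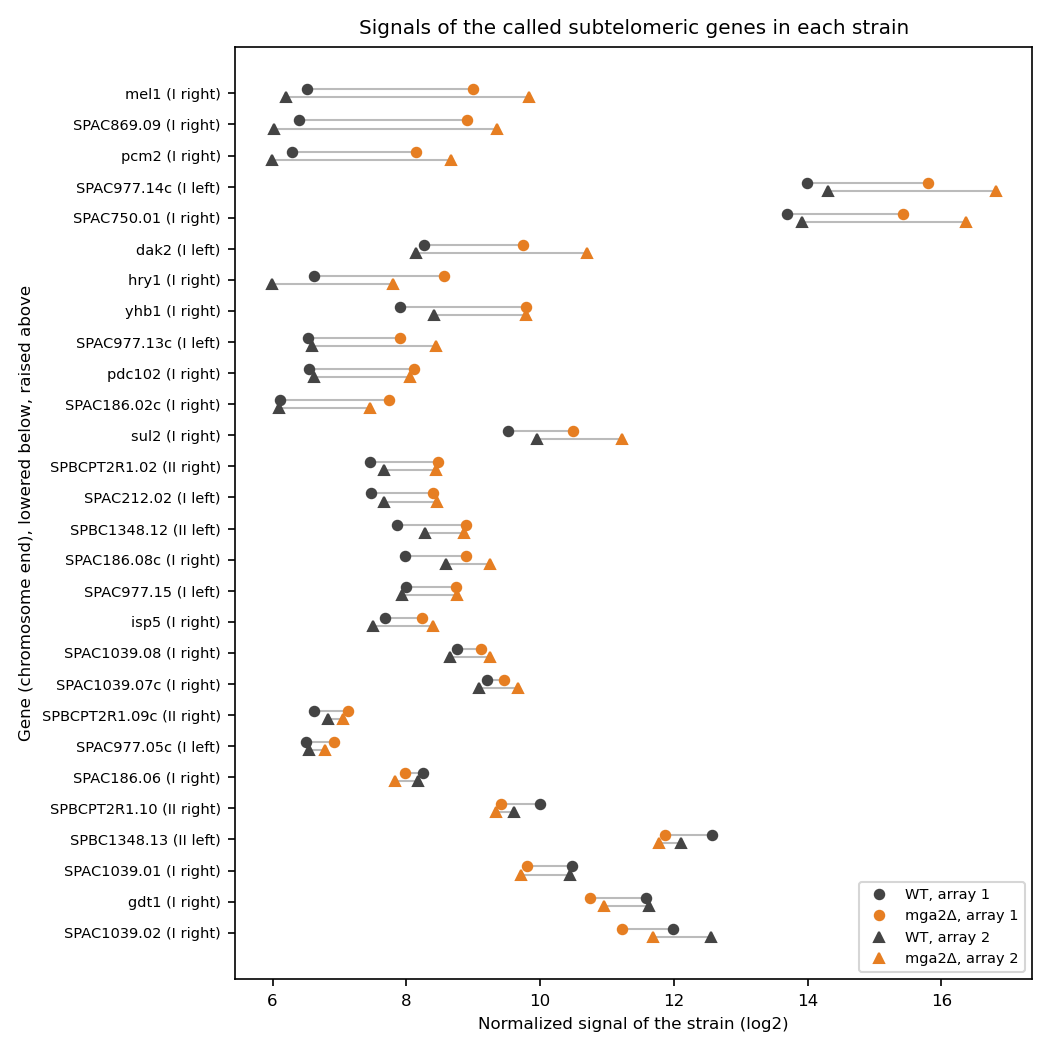
Normalized signal (log2, x axis) of each called subtelomeric gene (y axis, with its chromosome end) in WT (dark) and mga2Δ (orange) on array 1 (circles) and array 2 (triangles), joined by a line per array. In all 22 raised genes both mga2Δ values lie above both WT values, and in all 6 lowered genes both lie below. These genes were called by a test on the same arrays, so this separation largely follows from the choice and is no separate support.

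Agreement between the arrays was not the same for all raised genes. Of the 22, 12 had the larger ratio on array 2 and 10 on array 1, with a median difference of 0.16 (array 2 minus array 1). Of the 915 raised genes of the whole array, 622 had the larger ratio on array 2, with a median difference of 0.10. Among the raised members the widest gaps in favour of array 2 were those of mel1, dak2 and pcm2. The widest in favour of array 1 were those of yhb1 and SPBC1348.12. The arrays also differed in dye, so dye and replicate cannot be told apart in these differences.

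**Figure D3:**
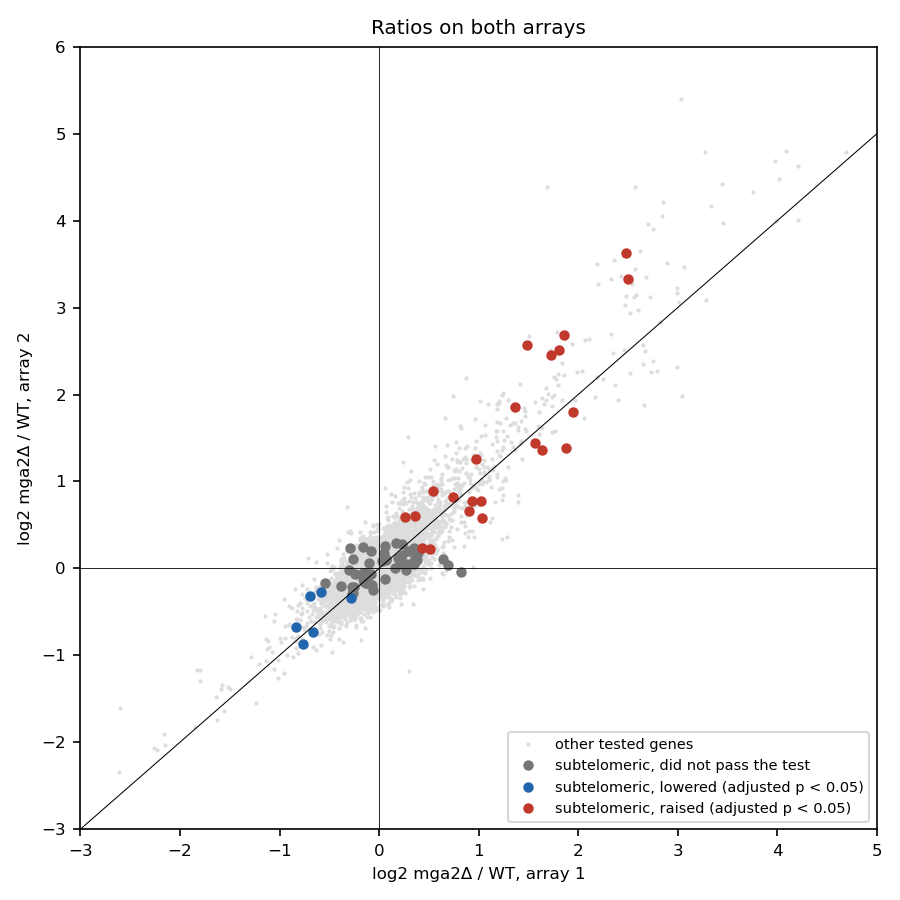
Ratios (log2 mga2Δ over WT) on array 1 (x axis) and array 2 (y axis) for the tested subtelomeric genes (coloured) and the other tested genes (light grey), with the line of equal ratios. The raised genes reach 2.50 on array 1 and 3.63 on array 2, and 4 other genes lie outside the frame.

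The 6 lowered genes fell by less. At the right end of chromosome I, SPAC1039.02 had signals of 11.98 and 12.6 in WT and 11.2 and 11.7 in mga2Δ, and it fell by 0.82 on the log2 scale (± 0.08, adjusted p = 0.00111). Its neighbour SPAC1039.01, the innermost of these genes, fell by 0.70 (± 0.05, adjusted p = 0.00200). The gdt1 gene, of a conserved family of Golgi cation transporters, had WT signals of 11.6 on both arrays and mga2Δ signals of 10.8 and 11.0, a fall of 0.75 (± 0.11, adjusted p = 0.00175). SPAC186.06 next to it fell by 0.31 (± 0.04, adjusted p = 0.0415). On chromosome II, SPBC1348.13 (−0.51 ± 0.27, adjusted p = 0.0189) and the pseudogene SPBCPT2R1.10 (−0.42 ± 0.22, adjusted p = 0.0278) were lowered. The last 3 named did not pass with fewer prior degrees of freedom (adjusted p from 0.0799 to 0.0916) or with spike-in centring (adjusted p from 0.164 to 0.651).

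Chromosome II had 3 raised members in all. SPBC1348.12 rose from 7.87 and 8.28 in WT to 8.90 and 8.87 in mga2Δ (ratio 0.81 ± 0.32, adjusted p = 0.00454). SPBCPT2R1.02, the innermost measured SPBCPT2R1 gene with a place in the gene order, rose from 7.45 and 7.67 to 8.47 and 8.44 (ratio 0.90 ± 0.17, adjusted p = 0.00111). The rise of SPBCPT2R1.09c was small (0.37 ± 0.20, adjusted p = 0.0409) and did not pass with the deposited ratios (adjusted p = 0.140). None of the 4 tested SPBPB8B6 genes passed, and their means lay between −0.27 and −0.11. They include fex2, a fluoride exporter (−0.27 ± 0.02), grt1 and fah1. The hexose transporter gene ght7 had a ratio of −0.14 ± 0.04 and did not pass either.

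None of the members nearest to the 4 chromosome ends passed the test. The genes tlh1 and tlh2 encode RecQ-type helicases and lie at the tips of the left end of chromosome I and the right end of chromosome II. The tlh1 signals were 7.99 and 8.37 in WT and 8.69 and 8.41 in mga2Δ. Its ratio was 0.70 on array 1 and 0.03 on array 2, and tlh2 had 0.82 and −0.04. Both copies were thus higher in mga2Δ on array 1 and near 0 on array 2, and neither passed the test (adjusted p = 0.126 and 0.175). With spike-in centring both passed (0.55, adjusted p = 0.00681, and 0.57, adjusted p = 0.00464). In that setting the limma adjusted p followed the size of the mean alone, down to 7.83e-76 for mel1. The gap between the arrays thus hardly counted there, and these calls cannot be set beside those of the main test. At the right end of chromosome I, SPAC750.08c had a mean of −0.10 ± 0.04, and SPBC1348.01, the second gene from the left end of chromosome II, one of −0.15 ± 0.03. Neither passed, and the sign of each turned with spike-in centring (0.087 and 0.037), that of SPAC750.08c also with the processed signals (0.21). Over all tested genes 18.4% were raised. Among the 20 outermost genes of each end it was 9 of 50 tested members (18.0%, near that share), and beyond them 12 of 26 (46.2%). All members beyond them lie on chromosome I, since every chromosome II member with a place in the gene order is in the outer stretch. At the right end of chromosome I, 5 of 15 tested genes in the outer stretch and 8 of 18 farther in were raised, and at its left end 2 of 16 and 4 of 8. The outer probes were also dimmer. In WT 21 of 60 were not well above background on either array, against 4 of 28 farther in. Ratios of such dim probes are pulled towards 0, and whether position or dimness underlies the contrast was not tested.

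Some of these genes were treated as copies of each other, without comparing sequences. By shared gene symbol, equal annotated length or matching place in the gene order, 30 members fell into 14 copy groups, and the other 60 stood alone. Counted with each group as 1 measurement, 21 of 64 tested units were raised (32.8%) and 6 lowered, so that copies grouped in this way added little to the counts above. SPAC977.14c and SPAC750.01, which had near-equal ratios, were not grouped and count as separate raised units. The raised copy group was that of SPAC212.02 and SPBCPT2R1.02, joined because each lies next inward of a gene of the same annotated length (SPAC212.03 and SPBCPT2R1.03). SPAC212.02 rose by 0.93 and 0.78 and SPBCPT2R1.02 by 1.0198 and 0.78. As 1 measurement the pair had a ratio of 0.88 ± 0.14. The pseudogenes next to the tlh genes both pointed down. SPBCPT2R1.10 was lowered, while SPAC212.10, at −0.36 ± 0.27, did not pass (adjusted p = 0.0572). A call in 1 of 2 tested copies was enough in the count of units, so this pair counts as a lowered unit.

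The other copy groups held no raised gene, and their ratios are given as a description only, since the groups were set after the values were seen and 7 of the 14 rest on gene order. SPAC212.01c, SPAC750.06c, SPBC1348.01 and SPBCPT2R1.04c lie at 4 different ends, with a common ratio of −0.14 ± 0.003. The ftm1 and ftm4 pair had 0.15 ± 0.07, the fluoride exporter genes fex1 and fex2 −0.25 ± 0.004, and pfl6, a cell-surface glycoprotein gene, with SPBC1348.08c −0.14 ± 0.11. Probes of near-identical copies can bind each other's transcripts, so these groups say little about single copies.

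**Figure D4:**
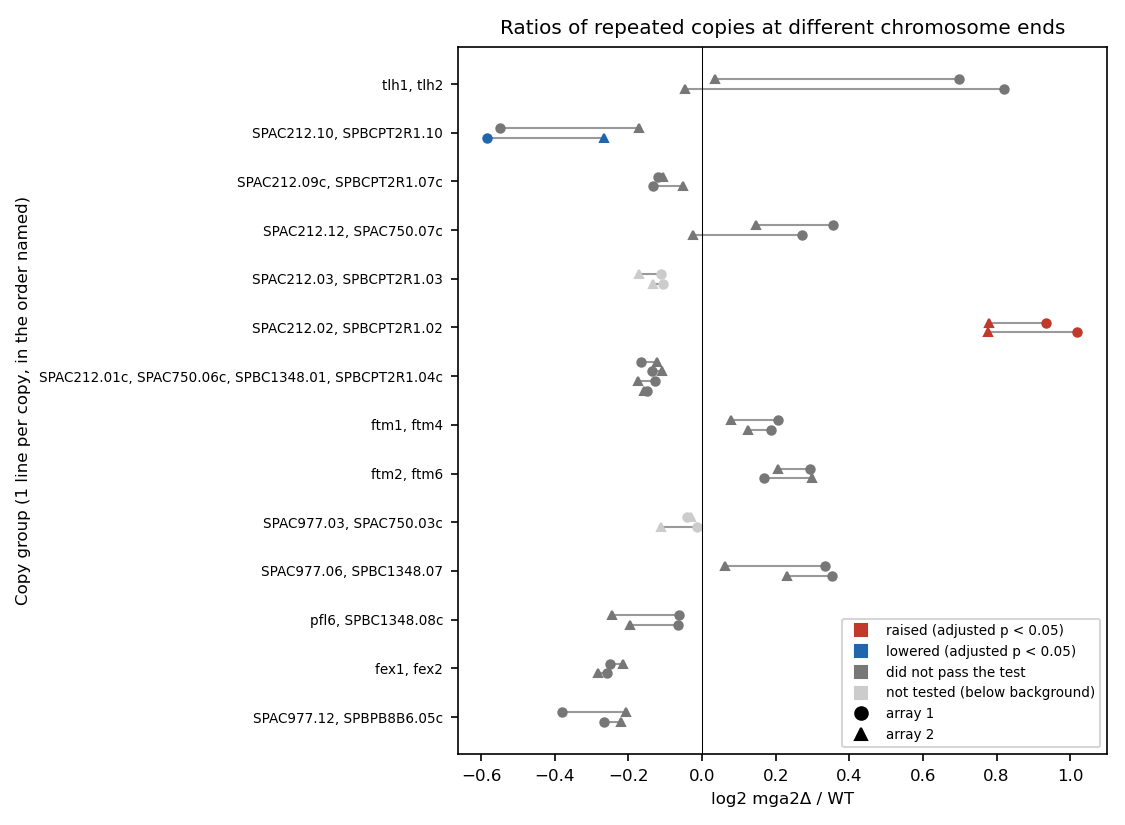
Ratios (log2 mga2Δ over WT, x axis) of the 14 copy groups (y axis), with a line per copy joining array 1 (circle) and array 2 (triangle) and colour for the result of the test. The groups were set after the values were seen, so how near copies lie to each other is no result; the raised pair is SPAC212.02 with SPBCPT2R1.02.

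Subtelomeric genes were often dim. In WT 25 of the 90 probes (27.8%) were not well above background on either array, where over all probes 133 were (2.63%), and in mga2Δ 7 were (7.78%), against 67 (1.32%). In 13 members the probe was above background on both arrays in mga2Δ and on neither in WT, but only pcm2 and SPAC186.02c among them were raised. Probes with this pattern were not counted over the whole array, so the 13 cannot be called particular to these genes. The other 11 had mean ratios between −0.11 and 0.28. The 12 members not tested include 7 below background in both strains on both arrays, and where both arrays gave a value their ratios lay between −0.16 and 0.13. Ratios of such dim probes are pulled towards 0 by the constant added in the background correction, so a small ratio there does not show that a transcript was level.

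The mRNAs of proteins that act on silencing or at telomeres were mostly measured without a call, and the proteins themselves were not measured. Of 28 listed genes for heterochromatin, RNA interference and telomere proteins, 1 was raised and none was lowered, where 18.4% and 10.9% of all tested genes were. Their median ratio was 0.02, and 4 had an unadjusted p under 0.05, as did 2071 of the 4964 tested genes. With the processed signals 2 of them were lowered, and with the deposited ratios 3, and none was raised in either. The raised one was rap1 (0.31 ± 0.10, adjusted p = 0.0454), but no listed gene was raised with median centring, processed signals, deposited ratios or fewer prior degrees of freedom. Its partner taz1, a telomere-binding protein, had a ratio of 0.27 ± 0.20 (adjusted p = 0.0980). The lowest ratios were those of rif1 (−0.27 ± 0.17) and clr2 (−0.27 ± 0.11), and neither passed.

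The genes just inward of the members differed between the ends. At the left end of chromosome I, 5 of the 8 tested genes among the next 10 were raised. They include ght3, a hexose transporter (1.63 ± 0.55), the haem uptake gene shu1 (5.78 ± 1.49) and str3 (4.22 ± 1.68). Rises were thus also seen beyond the members there and reached larger ratios. Whether they form 1 run is not known, since SPAC977.17 and SPAPJ695.01c, between dak2 and ght3, were not tested. At the right end, 3 of 10 were lowered and none was raised, and of 5 SPAC922 genes that lie between the SPAC869 and SPAC1039 members 3 were lowered and 1 was raised. Next to the chromosome II members, 4 of 6 tested genes at the left end and 4 of 9 at the right end were raised. These include eno102 (4.45 ± 0.51) and cmt2 (4.74 ± 0.07) at the left, both above the ratio of any member, and SPBPB2B2.18 (2.24 ± 0.19) and gal10, of galactose use (1.88 ± 0.17), at the right. The low counts on chromosome II thus hold for the clones listed here and not for the wider region.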

How the data were processed

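The data are 2 arrays with 2 colours each, 1 per biological replicate pair. Per the labels' protocols, oligo-dT primers served to amplify total RNA. Per the file headers, the scanner images were read with Agilent Feature Extraction 10.5.1.1, and the submitters' processing notes add Partek. The deposited scanner tables hold median spot and background intensity, processed signals and a log10 ratio (Cy5 to Cy3). A further deposited table gives the authors' own log2 ratios. It correlated with the scanner ratios (mga2Δ over WT) with r of 0.986 on both arrays, with medians of −0.0782 and −0.115, and the step that normalized it was not stated in the labels or headers.

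Median intensities were background-corrected with normexp (offset 50) and loess-normalized within array in limma 3.58.1 (R 4.3.3), with control and outlier spots at weight 0. Outlier spots (3.57% and 3.36%) were left out, the 3 spots of a probe averaged and the sign of array 2 turned. A probe was tested if each array had at least 2 spots well above background in the Cy3 or the Cy5 channel (4964 of 5057). Means were tested with lmFit and eBayes, with 5.62 prior degrees of freedom. Strain signals came from loess and Aquantile normalization. The steps were tested on simulated data.

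Gene order came from a RefSeq table (88 of 90 members matched), whose coordinates are not printed because the files name no build. Planned grouping of copies by protein identity and a promoter motif search were not run, since no sequences were used here; the groups were set by symbol, annotated length and order after values were seen. Members and lists were chosen with earlier results of these data known. Any called gene could be named; array values were printed by rule for the 12 called genes with the highest and the 6 with the lowest mean ratio, the extremes and tips of each end and copy groups with a call; other genes were named after their values were seen. Alternatives are given in the closing section. Tables were made with Python 3.11.15 and pandas 2.3.3.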

Additional observations from a re-analysis of the deposited data

How the results depend on the processing

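Leaving out background correction, testing all probes or only probes above background in both channels changed the counts of raised and lowered genes by less than 1.5 times. With median centring in place of loess, 6 genes were raised, 0 lowered, 6 copy units raised and 0 silencing factors raised. Of the called genes, 22 lost their call, including all 6 lowered ones. Raised genes that lost it include mel1 at 3.08 (limma adjusted p = 0.0545), dak2 at 2.06 (0.0697), pcm2 at 2.30 (0.0944) and SPAC977.14c, whose ratio dropped to 1.56 (0.0510). The 6 that passed were SPAC869.09, hry1, yhb1, sul2, pdc102 and SPAC750.01. With the scanner software's processed signals 34 genes were raised and 14 lowered, 0 silencing factors were raised and 2 lowered, the medians at the left ends of chromosomes I and II were 0.48 and −0.33, and SPAC750.08c turned to 0.21. With the deposited ratios 21 genes were lowered, 0 silencing factors were raised and 3 lowered, and the chromosome II medians were −0.39 (left) and −0.17 (right). The right-end median of chromosome II was −0.020 with all probes and 0.30 with probes above background in both channels. Spike-in centring, which moved the median of all genes to 0.19, gave 3 lowered genes, 2 raised silencing factors and medians of 0.39 and 0.34 on chromosome I and 0.045 and 0.30 on chromosome II (left, right), and turned SPAC750.08c to 0.087 and SPBC1348.01 to 0.037. Under spike-in centring the adjusted p followed the mean alone, whatever the gap between arrays. Its calls are therefore not like those of the main test. Halving the prior degrees of freedom gave 3 lowered genes and 0 raised silencing factors. The cause of these shifts was not tested.

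On a single array, without a test, 12 to 13 genes (12 to 13 units) were raised at least 2-fold and 0 lowered, and end medians ranged from 0.099 to 0.26 and from 0.15 to 0.24 at the left and right of chromosome I, and from −0.17 to −0.13 and from 0.0091 to 0.14 on chromosome II; tlh2 ranged from −0.045 (array 2) to 0.82 (array 1). A 2-fold rule on both arrays, chosen after seeing the data, gave 11 raised and 0 lowered. Joining copies by symbol or length only, also chosen then, gave 22 raised units. Copy groups at 80% and 98% protein identity were not run. No paired analysis was possible beyond the reported test because that test is itself paired, on the ratios of the strains within each array. Signal over background limits the 12 untested genes.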
